A study of Arabidopsis thaliana with 12 samples.

Results

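The GH9B genes encode plant endo-1,4-beta-glucanases of glycoside hydrolase family 9, class B. All probes annotated to 1 gene whose symbol begins with GH9B were taken, by symbol alone. This gave 4 genes, GH9B11 (AT2G44560), GH9B12 (AT2G44570), GH9B8 (AT2G32990) and GH9B16 (AT4G38990), each on 1 probe, of 691 genes with a single-name probe and 3439 probes in all. Total RNA of wild-type Arabidopsis thaliana, the thale cress, ecotype Columbia 0, was measured on 12 arrays. The 6 ML_4C arrays came from plants that spent 24 h in medium light at 4 °C, which the submitters call photoinhibitory. The 6 ML_20C arrays came from plants grown in medium light at 20 °C. The labels give no mutation or transgene in either group, and they name no organ, age or number of plants.

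Enzymes of family 9 cut beta-1,4-linked glucan chains, mainly the less ordered parts of cellulose, in the plant cell wall. Class A members are anchored in the membrane and include KORRIGAN, which is needed for cellulose synthesis, class B members are secreted enzymes with a catalytic domain alone, and class C members carry an added cellulose-binding domain. Such enzymes are known from work in several plants for roles in cell expansion, in the shedding of organs and in fruit softening. No individual role is given here for the 4 measured GH9B genes.

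Some of the GH9B genes lie side by side on a chromosome, and others lie apart. In the reference annotation, GH9B9, GH9B10, GH9B11 and GH9B12 follow each other on chromosome 2 with 0 annotated genes between neighbours, and GH9B16, GH9B17 and GH9B18 do so on chromosome 4. GH9B8 is on chromosome 2, with 1542 annotated genes between it and GH9B9. Of 15 genes whose symbol begins with GH9B in that annotation, 4 had a probe of their own, 6 appeared only on probes that name several genes, and 5 were on no named probe.

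Each deposited value is an intensity on a linear, relative scale, with array means of 1.02 to 1.07 at 4 °C and 1.05 to 1.09 at 20 °C, while array medians were 0.276 to 0.315 at 4 °C and 0.536 to 0.569 at 20 °C. Arrays 1 and 2 of a group resembled each other more than other arrays did, as did 3 and 4, and 5 and 6, so each such pair was counted as 1 sample. The likeness within pairs was weaker at 4 °C than at 20 °C. Means and SDs below are over 3 pair means of linear intensities. No label says whether the pairs are separate plants, so the p-values refer to the spread among these samples alone, and that spread may be technical. Of the 33 listed markers of organs, 5 of 14 for green tissue, 2 of 8 for flower and pollen and none of those for root or seed had a single-name probe, and no measured marker was listed at 0 on any array.

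The comparison asked how plants at 4 °C differed from plants at 20 °C in the same light. As deposited, all 4 GH9B genes had lower intensities at 4 °C, by 2.95-fold to 3.94-fold, and for each of them all 6 arrays at 4 °C lay below all 6 at 20 °C. Each passed the test over pair means (limma, Benjamini-Hochberg adjusted p of 0.05 or less). This has to be read against the whole array, where 49.6% of 3378 probes (those not at 0 on every array) passed as lower, as did 52.1% of the 676 single-gene probes. Groups that did not overlap, with 4 °C lower, were found in 48.9% of probes. Over 12 single arrays all 4 also passed as lower, against 59.9% of probes.

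**Figure D1:**
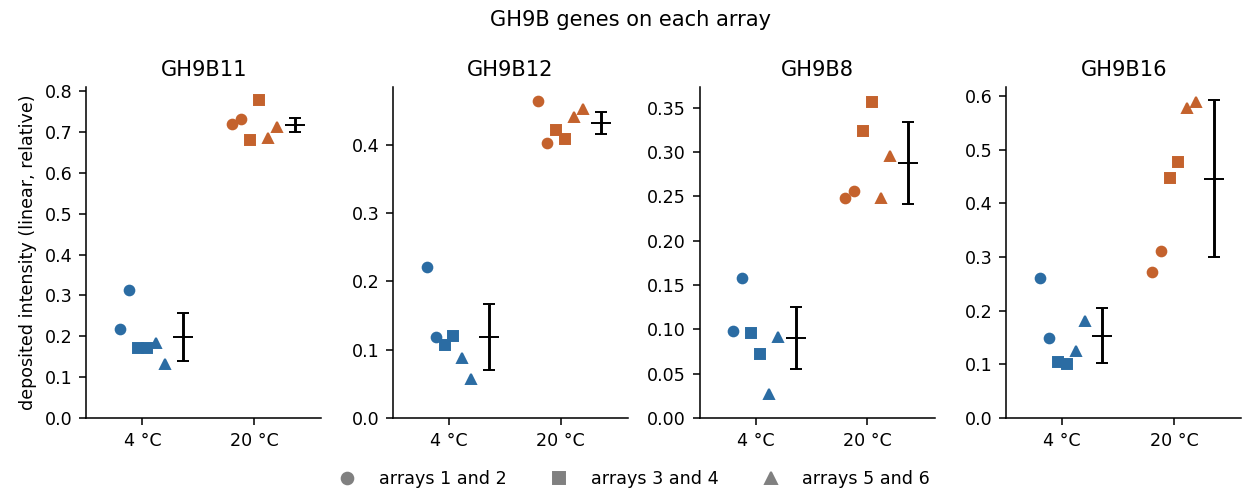
Deposited intensity (linear, relative scale) of the 4 GH9B genes on each of 12 arrays, 4 °C left and 20 °C right in each panel. Each point is an array, marker shapes show the pairs of like arrays, and bars give the mean and SD of 3 pair means. No gene has overlapping groups, and GH9B16 has the widest spread at 20 °C, from 0.272 to 0.588.

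GH9B11 read 0.218, 0.315, 0.170, 0.172, 0.184 and 0.131 on arrays 1 to 6 at 4 °C, against 0.720, 0.732, 0.681, 0.777, 0.686 and 0.711 at 20 °C. The values at 20 °C were close together, the highest being 1.14 times the lowest, while at 4 °C array 2 was the highest and array 6 the lowest, 2.39-fold apart. The mean was 0.198 ± 0.0591 at 4 °C and 0.718 ± 0.0167 at 20 °C (SD, n = 3). The log2 change was -1.91 ± 0.22 (SE), with a limma adjusted p of 0.00123 over pair means and 1.1e-06 over 12 arrays. The median log2 change of all probes was -0.74, and GH9B11 lay 1.16 below it.

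GH9B12, the next gene after GH9B11 on chromosome 2, read 0.221, 0.119, 0.107, 0.120, 0.0878 and 0.0575 at 4 °C, against 0.463, 0.402, 0.422, 0.408, 0.440 and 0.452 at 20 °C. Array 1 stood above the other 5 at 4 °C, and at 20 °C the highest value was 1.15 times the lowest. The mean was 0.119 ± 0.0488 at 4 °C and 0.431 ± 0.0156 at 20 °C (SD, n = 3), a log2 change of -1.98 ± 0.31 (SE, limma adjusted p = 0.00331). Arrays 1 and 2 at 4 °C, counted as 1 sample, differed 1.85-fold for this gene.

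GH9B8 was dim on every array. It read 0.0981, 0.158, 0.0959, 0.0718, 0.0276 and 0.0913 at 4 °C, against 0.248, 0.256, 0.323, 0.357, 0.248 and 0.295 at 20 °C. The reading on array 5 at 4 °C was the lowest, and arrays 5 and 6, counted as 1 sample, differed 3.30-fold. The mean was 0.0904 ± 0.0347 at 4 °C and 0.288 ± 0.0462 at 20 °C (SD, n = 3), a log2 change of -1.83 ± 0.35 (SE, limma adjusted p = 0.0069).

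GH9B16, the member on chromosome 4, read 0.260, 0.148, 0.104, 0.101, 0.125 and 0.181 at 4 °C, against 0.272, 0.311, 0.447, 0.477, 0.577 and 0.588 at 20 °C. The groups came within a small gap of each other, since array 1 at 4 °C and array 1 at 20 °C were nearly level. At 20 °C the 3 pair means were 0.292, 0.462 and 0.583, so the pairs differed there far more than the arrays within a pair, which were at most 1.14-fold apart. The mean was 0.153 ± 0.0509 at 4 °C and 0.445 ± 0.146 at 20 °C (SD, n = 3), a log2 change of -1.56 ± 0.35 (SE, limma adjusted p = 0.0122).

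GH9B11 and GH9B12 had a small spread at 20 °C and a wide one at 4 °C. The SD of the 3 pair means on the log2 scale was 0.40 at 4 °C and 0.03 at 20 °C for GH9B11, and 0.60 at 4 °C and 0.05 at 20 °C for GH9B12. GH9B8 had 0.66 at 4 °C and 0.22 at 20 °C. GH9B16 differed in this, with 0.47 at 4 °C and 0.51 at 20 °C. Arrays 1 and 2 gave the highest pair mean at 4 °C for each of the 4 genes, and the lowest at 20 °C for GH9B8 and GH9B16. Without that pair at 4 °C the log2 changes were -2.14 for GH9B11, -2.26 for GH9B12, -2.14 for GH9B8 and -1.78 for GH9B16. These spreads are descriptions and were not tested.

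The 4 changes were not told apart from each other. The log2 ratio of each of 6 pairs of members was compared between temperatures on the same arrays, which cancels any scaling factor of an array. The widest difference was between GH9B12 and GH9B16, where the change of GH9B12 was lower by 0.42 on the log2 scale, with a 95% interval from -1.69 to 0.86. The exact permutation p was 0.5 over pair means, where 3 against 3 allows none below 0.1, and 0.262 over 12 arrays, or 0.868 adjusted over the 6 pairs. The 2 neighbours GH9B11 and GH9B12 differed by 0.07, with an interval from -0.40 to 0.55. The intervals, computed from the spread of the 3 pair means per group, reach down to -1.69 on the log2 scale for pairs with GH9B16 and to -0.71 for pairs without it.

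Where the genes stood among all probes of an array was less clear-cut than their intensities. The percentile of a probe among the 3378 is unaffected by any scaling of whole arrays. GH9B11 was at percentiles 24.6 to 49.2 at 4 °C, with a median of 32.0, against 58.3 to 63.8 at 20 °C, with a median of 61.3. It was thus below the middle of the array on all 6 arrays at 4 °C and above it on all 6 at 20 °C.

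GH9B12 had percentiles of 10.9 to 37.6 at 4 °C, with a median of 18.0, against 33.7 to 43.2 at 20 °C, with a median of 37.5. Only array 1 at 4 °C reached into the range at 20 °C, and the other 5 arrays at 4 °C were at 20.2 or less. GH9B8 had a median percentile of 15.8 at 4 °C and 22.2 at 20 °C, and GH9B16 of 24.6 at 4 °C and 39.6 at 20 °C. Both had overlapping ranges, 7.16 to 27.6 at 4 °C against 18.1 to 28.3 at 20 °C for GH9B8, and 15.2 to 43.0 at 4 °C against 23.6 to 51.1 at 20 °C for GH9B16. Percentile ranges that did not overlap, with 4 °C lower, thus held for 1 of the 4 genes and for 21.0% of all probes.

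**Figure D2:**
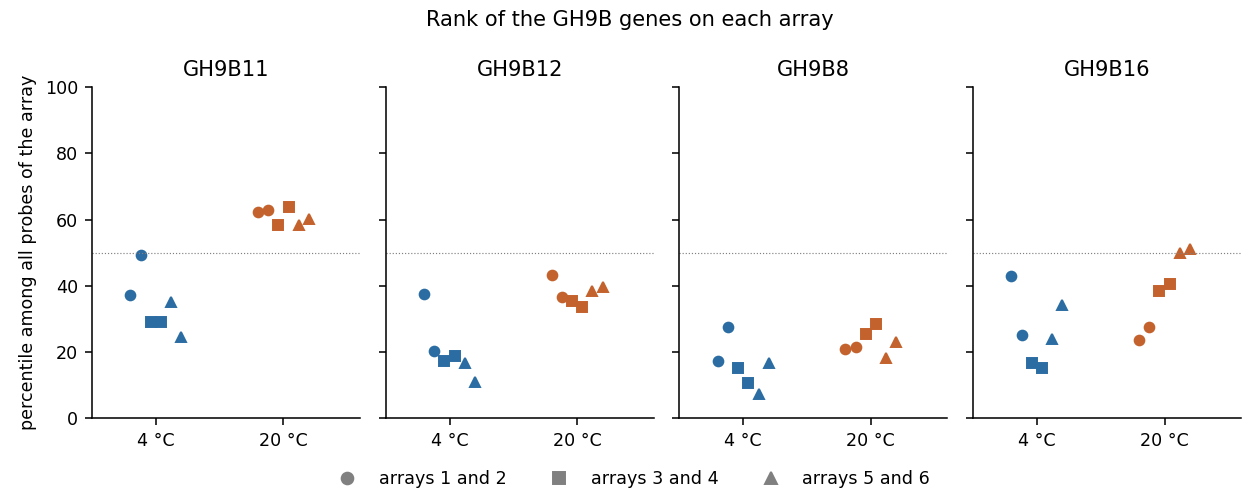
Percentile of each GH9B gene among the 3378 probes of an array (vertical axis, 0 to 100), 4 °C left and 20 °C right, with 1 point per array and marker shapes for the pairs. GH9B11 lies at 24.6 to 49.2 at 4 °C and at 58.3 to 63.8 at 20 °C, while the ranges of the other 3 genes overlap.

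The change of a probe varied with its brightness, so the members were set beside probes of like brightness. Probes above 0 on all arrays were split into 10 equal groups by mean intensity. GH9B11 was in the fifth from the dim end, whose median log2 change was -0.93 and where 60.8% of probes were called lower. GH9B12 and GH9B16 were in the third, with a median of -1.18 and 69.7% called lower. GH9B8 was in the dimmest, with a median of -0.99 and 49.8% called lower. All 4 genes lay below the median of their brightness group, GH9B16 by the least. Over all probes their changes ranked at percentiles 14.5 for GH9B12, 15.8 for GH9B11, 17.4 for GH9B8 and 23.9 for GH9B16, where low percentiles are the strongest falls.

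**Figure D3:**
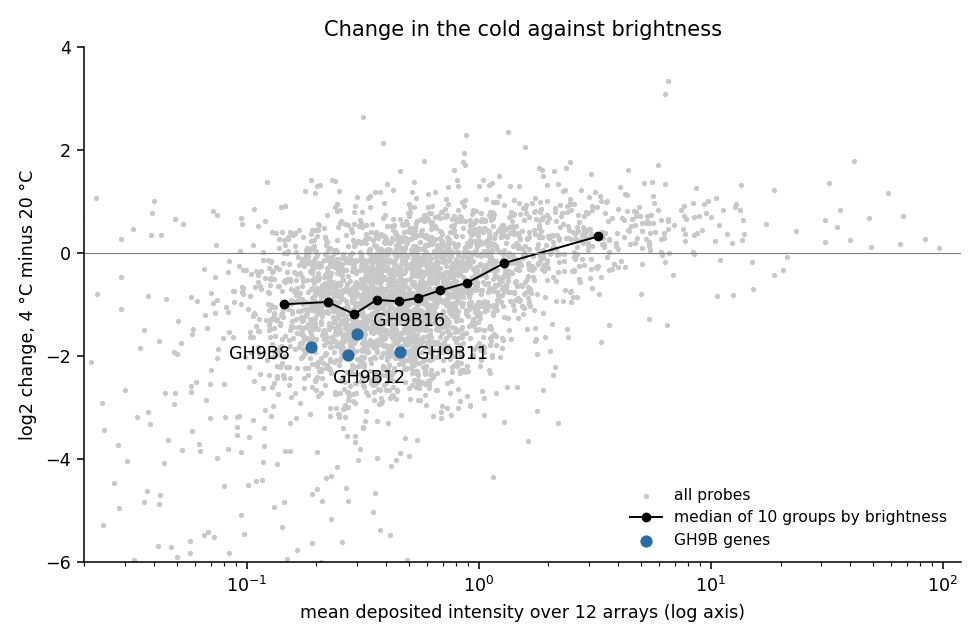
Log2 change, 4 °C minus 20 °C (vertical axis), against mean deposited intensity over 12 arrays (horizontal, log axis). Grey points are all probes apart from 162 outside the plotted range, black points the median of each of 10 brightness groups, and blue points the GH9B genes, which lie between -1.98 and -1.56, below the black line.

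How many of the 4 genes were called depended on how the arrays were scaled to each other. Of the 3378 probes, 1675 were called lower and 232 higher as deposited. Median centring gave 638 lower and 1015 higher, quantile normalization 701 and 803, and cyclic loess 703 and 646. The median log2 change over all probes was 0.17, 0.07 and -0.0004 in these 3 scalings. GH9B11 passed as lower under each of these, with log2 changes of -0.99 after median centring, -0.98 after quantile normalization and -0.94 after cyclic loess (limma adjusted p = 0.00907, 0.00959 and 0.0133). Its fall was thus about 1.92-fold to 1.99-fold in these scalings and 3.75-fold as deposited.

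GH9B12 passed after median centring, at -1.07 (limma adjusted p = 0.0218), and after quantile normalization, at -0.84 (limma adjusted p = 0.0316). It narrowly missed after cyclic loess, at -0.87 (limma adjusted p = 0.053). GH9B8 and GH9B16 stayed below 0 but passed under none of these scalings. GH9B8 had -0.91 after median centring, -0.57 after quantile normalization and -0.64 after cyclic loess (limma adjusted p = 0.0547, 0.125 and 0.16). GH9B16 had -0.65, -0.52 and -0.48 in the same order (limma adjusted p = 0.153, 0.242 and 0.321). So 2, 2 and 1 of the 4 genes were called lower under the 3 scalings, against 18.9%, 20.8% and 20.8% of all probes.

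**Figure D4:**
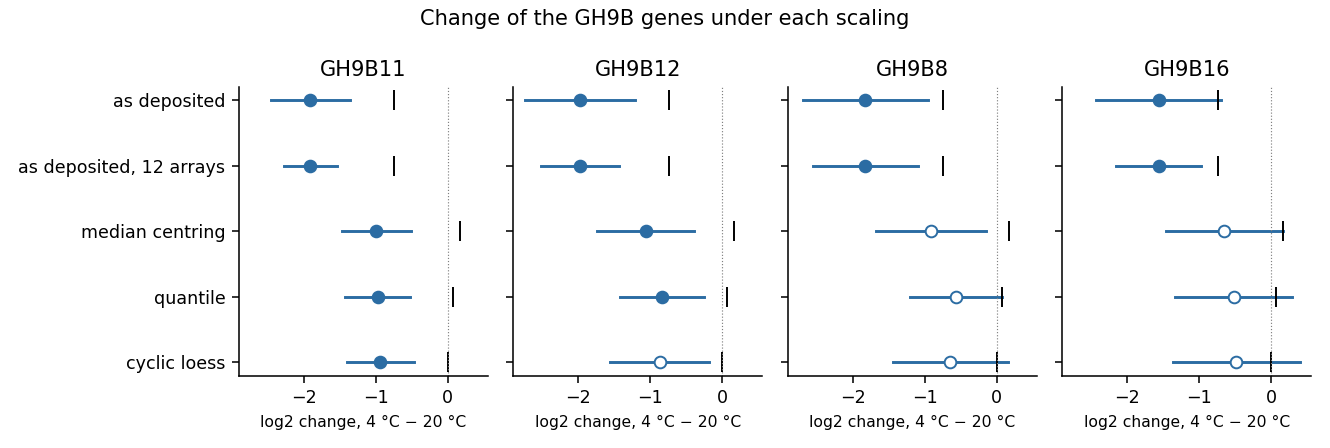
Log2 change, 4 °C minus 20 °C, of each GH9B gene (horizontal axis) under 5 settings, with 95% intervals from limma. Filled points passed an adjusted p of 0.05, open points did not, and black ticks mark the median change of all probes in that setting. GH9B11 is filled throughout, from -1.91 as deposited to -0.94 after cyclic loess, and GH9B8 and GH9B16 are open after each rescaling.

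A further 6 probes named several genes with a GH9B gene among them, and 1 named GH9C2 and GH9C3. They give a partly separate reading of the same family, since 2 of them include a gene that also has its own probe. The probe for GH9B9, GH9B10, GH9B11 and GH9B12, the run of neighbours on chromosome 2, read 0.0627, 0.111, 0.0421, 0.0726, 0.00782 and 0.0450 at 4 °C, against 0.492, 0.449, 0.506, 0.462, 0.462 and 0.422 at 20 °C. Every array at 4 °C was far below every array at 20 °C. Such a lack of overlap, with 4 °C lower, was found in 48.9% of all probes. The mean was 0.0568 ± 0.0302 at 4 °C and 0.466 ± 0.0215 at 20 °C (SD, n = 3), a log2 change of -3.39 ± 0.55 (SE, limma adjusted p = 0.00371). It stayed lower after median centring, quantile normalization and cyclic loess, at -2.48, -1.89 and -2.20 (limma adjusted p = 0.0104, 0.00628 and 0.0223).

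The probe for GH9B9 and GH9B10 alone had a listed value of 0 for 3 of the 6 cold arrays. The other 3 read 0.171, 0.108 and 0.0232, against 0.198 to 0.292 at 20 °C, so the groups did not overlap, but the pair means did not pass (limma adjusted p = 0.0589). It passed over the 12 single arrays (limma adjusted p = 0.0125), also with the replicate number as a block (0.0216), with 0.0680 added to each value (0.0267), with a trended robust variance (0.0383) and without arrays 1 and 2 at 4 °C (0.00116). It did not pass after median centring, quantile normalization or cyclic loess (limma adjusted p = 0.0983, 0.139 and 0.185). Nor did it with the pair as a random block (0.105), or with pair means and the replicate number as a block (0.0815). Leaving out any other pair also gave no pass (limma adjusted p = 0.118 to 0.147). No fold is given for this probe because of the values at 0.

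On chromosome 4, the probe for GH9B16, GH9B17 and GH9B18 read 0.263, 0.377, 0.173, 0.178, 0.302 and 0.247 at 4 °C, against 0.605, 0.626, 0.695, 0.676, 0.835 and 0.830 at 20 °C. Arrays 5 and 6 were the highest at 20 °C and arrays 1 and 2 the lowest, as on the probe of GH9B16 itself. The mean was 0.257 ± 0.0738 at 4 °C and 0.711 ± 0.111 at 20 °C (SD, n = 3), a log2 change of -1.51 ± 0.26 (SE, limma adjusted p = 0.00481), beside -1.56 for the single-gene probe of GH9B16. Like that probe, it did not pass after median centring, quantile normalization or cyclic loess, at -0.60, -0.64 and -0.60 (limma adjusted p = 0.0962, 0.0789 and 0.118). A probe for GH9B17, GH9B18 and AT3G42155, a gene of another chromosome, had a listed value of 0 for 5 of the 6 cold arrays and read 0.0365 on the other, array 4, against 0.111 to 0.219 at 20 °C (limma adjusted p = 0.00101, no fold given).

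Both probes for GH9B14 and GH9B15, which lie apart on chromosome 4, had overlapping groups. The first read 0.0963 to 0.223 at 4 °C, with a mean of 0.173 ± 0.0530, against 0.0593 to 0.187 and a mean of 0.136 ± 0.0619 at 20 °C (SD, n = 3). The second read 0.165 to 0.500 at 4 °C, with a mean of 0.343 ± 0.148, against 0.0576 to 0.557 and a mean of 0.285 ± 0.194 at 20 °C (SD, n = 3). Neither passed as deposited, at log2 changes of 0.42 and 0.51 (limma adjusted p = 0.473 and 0.565). Without arrays 1 and 2 at 20 °C these changes were -0.04 and -0.21. The first passed as higher after median centring, quantile normalization and cyclic loess, at 1.33, 1.67 and 1.62 (limma adjusted p = 0.046, 0.0216 and 0.0333). Of all probes, 30.0%, 23.8% and 19.1% were called higher in these scalings. The second passed under none of them, at 1.43, 1.50 and 1.58 (limma adjusted p = 0.135, 0.123 and 0.132). The difference between these probes and those of the 4 GH9B genes was not tested.

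The class C probe for GH9C2 and GH9C3 averaged 0.230 ± 0.0335 at 4 °C and 0.220 ± 0.0403 at 20 °C (SD, n = 3), with overlapping groups. Its log2 change was 0.07 with a 95% interval from -0.40 to 0.55 (limma adjusted p = 0.761), and it passed as higher after median centring, quantile normalization and cyclic loess, at 0.99, 1.15 and 1.18 (limma adjusted p = 0.00954, 0.00469 and 0.00489). In these scalings 30.0%, 23.8% and 19.1% of all probes were called higher. No gene whose symbol begins with GH9A or KOR was on a named probe.

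**Figure D5:**
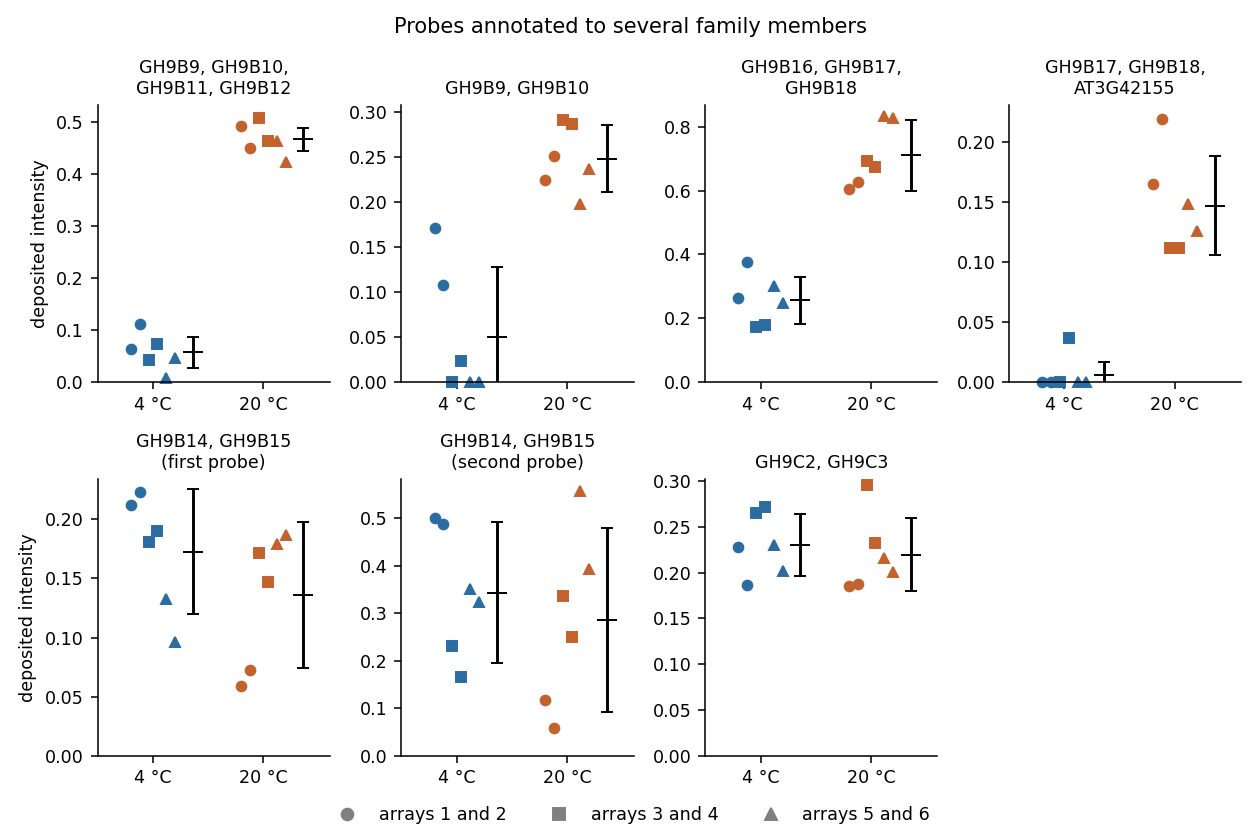
Deposited intensity of the 7 probes annotated to several genes of family 9, 4 °C left and 20 °C right, with 1 point per array, marker shapes for the pairs, and bars for the mean and SD of 3 pair means, drawn down to 0 at most. The 4 probes with genes of the GH9B9 to GH9B12 and GH9B16 to GH9B18 runs have groups that do not overlap. The 2 probes for GH9B14 and GH9B15 and the GH9C probe have overlapping groups. Of all 3378 probes, 48.9% have groups that do not overlap, with 4 °C lower.

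Few other cell wall genes with a probe of their own were found by name. The lists matched gene symbols and synonyms, so a wall gene carried under its locus number alone could be missed. The 6 lists covered the rest of family 9, cellulose synthases and their relatives, xyloglucan and expansins, pectin, other glycoside hydrolases, and wall glycoproteins and lignin. Of these, 5 had no single-gene member found this way. The sixth held CSLA01, of the CSLA family that makes the mannan backbone. CSLA01 rose to 0.900 ± 0.0641 at 4 °C, against 0.624 ± 0.0413 at 20 °C (SD, n = 3), a log2 change of 0.53 (limma adjusted p = 0.0176), so 1 of 1 member of its list was higher, where 6.87% of all probes were. It remained above 0 and past the threshold after median centring, quantile normalization and cyclic loess, at 1.44, 1.12 and 1.08. In these scalings 30.0%, 23.8% and 19.1% of all probes were called higher. Without arrays 5 and 6 at 20 °C CSLA01 did not pass, at 0.47 (limma adjusted p = 0.072).

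Among probes whose several names all belong to 1 of these lists, CSLC genes, which make the glucan backbone of xyloglucan, were on 2 that moved in opposite directions. The probe for CSLC5, CSLC12, CSLC04 and ATCSLC08 averaged 0.248 ± 0.0730 at 4 °C and 1.01 ± 0.118 at 20 °C, and that for CSLC5, CSLC6 and ATCSLC08 averaged 1.69 ± 0.261 at 4 °C and 1.08 ± 0.0452 at 20 °C (SD, n = 3 each). Their log2 changes were -2.06 and 0.63 (limma adjusted p = 0.00122 and 0.0173), and each kept its direction and its call after median centring, quantile normalization and cyclic loess. The second did not pass without arrays 1 and 2 at 20 °C, at 0.63, or without arrays 5 and 6 at 20 °C, at 0.61 (limma adjusted p = 0.0511 and 0.0639). The probe for the expansin-like genes EXLA2 and EXLB1 fell to 0.273 ± 0.0249 at 4 °C, against 0.730 ± 0.114 at 20 °C (log2 change -1.41, limma adjusted p = 0.00133), and missed the threshold after median centring, quantile normalization and cyclic loess, at -0.50, -0.53 and -0.52. The probe for BGLU46 and BGLU45, beta-glucosidases of monolignol glucosides, averaged 0.144 ± 0.0330 at 4 °C and 0.162 ± 0.0132 at 20 °C and did not pass (limma adjusted p = 0.45). Its log2 change of -0.21 as deposited turned to 0.71, 1.01 and 0.98 after median centring, quantile normalization and cyclic loess, where it passed as higher. So did 30.0%, 23.8% and 19.1% of all probes in these scalings.

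The single-name genes nearest to each member over the 6 pair means were found by the root mean square difference of log2 values, each gene centred on its own mean, among 612 others above 0 on all arrays. Nearest to GH9B11 were AT1G79080, a pentatricopeptide repeat protein, and AT2G25640, both at a difference of 0.11. Nearest to GH9B12 were AT2G48090 at 0.15 and SECE1, a subunit of the thylakoid Sec translocase, at 0.17, followed by GH9B11 and GH9B8, both at 0.18 (ranks 3 and 4). For GH9B8 the nearest was GH9B12, at 0.18, and then AT3G01360, also at 0.18. For GH9B16 they were AT4G33500 at 0.14 and AT4G13680 at 0.16, and the other 3 members were farther, at ranks 23 for GH9B11, 101 for GH9B8 and 120 for GH9B12. This likeness is a description over 6 samples. It includes the step between temperatures, so genes with a like fall lie near each other by construction. Of the single-gene probes, 52.1% were called lower as deposited.

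Other measurements moved with the same contrast. SPL and AGL54, the 2 of 8 genes on the flower and pollen list with a single-name probe, both fell. Of all probes, 49.6% were called lower. The summed intensity of SPL and AGL54 was 0.303 to 0.370 at 4 °C against 0.898 to 0.990 at 20 °C. These 2 probes do not establish that the samples held floral tissue. After median centring, quantile normalization and cyclic loess AGL54 still passed, at log2 changes of -1.29, -0.77 and -0.95, and SPL did not, at -0.36, -0.39 and -0.38. Of the 5 green tissue markers, LHB1B2, PSAN and SBPASE were lower, PSBW was higher and PRK did not pass, and the summed intensity of the 5 was 49.0 to 61.9 at 4 °C against 41.6 to 50.1 at 20 °C. PSBW made up most of that sum, and without it the other 4 summed to 9.07 to 10.7 at 4 °C against 15.4 to 23.2 at 20 °C. PSAN was lower in each of the 3 scalings, at -0.55, -1.50 and -1.58. PSBW passed as higher only after median centring among them, at 1.75, SBPASE as lower only after cyclic loess, at -0.46, and LHB1B2, at 0.08 after median centring, passed as lower in the other 2. The part of the makeup of the sampled tissue in the GH9B result was not tested, and fewer cells of a type and less RNA per cell cannot be told apart in RNA of whole samples. The mean intensity of an array was 1.02 to 1.09, and how the values were scaled is not known. Genes of a tandem run can resemble each other, so a probe may also bind transcripts of its neighbours, which was not tested.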

How the data were processed

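Intensity values came from the table the authors deposited, where they are linear, between 0 and 100, and already scaled. How they were scanned, background-corrected and scaled was not given in the sources used here. Gene names follow the platform annotation, brought up to date through RefSeq (GCF_000001735.4 TAIR10.1). Sequences were not used, and start coordinates served only to order the genes along each chromosome. Of 3439 probes, 692 had 1 gene, 870 several and 1877 none. The 2 probes of 1 gene were averaged, leaving 3438, of which 60 were 0 on every array and were left out of counts.

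A value of 0 was replaced by the array's lowest positive value, and log2 values were averaged over arrays 1 and 2, 3 and 4, and 5 and 6 of each group. Deviations from group means correlated within these pairs at 0.20 to 0.43 at 4 °C and at 0.80 to 0.92 at 20 °C. Between other arrays of a group they correlated at -0.46 to -0.23 at 4 °C and at -0.68 to -0.08 at 20 °C. Centring on the group mean lowers these latter values by construction. The test was limma 3.58.1 (lmFit, eBayes; R 4.3.3), 4 °C minus 20 °C, two-sided, adjusted over 3438 probes. A fold is a ratio of geometric means. The fit was tested on simulated data with changes in both directions and no shift of whole arrays. That test does not bear on how the arrays are scaled. Same-numbered pair means of the 2 groups correlated at -0.30 to 0.12, and those of other numbers at -0.42 to 0.31. The numbers were therefore not taken to pair the groups, but 3 pair means per group are too few to exclude a pairing.

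The rule for the members uses symbols only, but it was proposed, and the lists and pairs were chosen, with earlier results of these data known. Named are all 4 GH9B genes, up to 4 genes per wall list, and the 2 genes nearest to each member. The probes with several names were added after their values were seen. Alternatives were single arrays, blocks by pair or replicate number, 3 scalings, an offset of 0.0680, leaving out the 859 dimmest probes, a trended robust variance, and leaving out each pair.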

Additional observations from a re-analysis of the deposited data

Results flagged for a closer look

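On the probe for GH9B17, GH9B18 and AT3G42155, array 4 at 4 °C read 0.0365 while the other 5 arrays at 4 °C were listed at 0, which set it apart from its group by Dixon's criterion. This was 1 of 60 groups of arrays tested, and chance flags about 1 in 20. With the other 5 arrays tied at 0, any reading above 0 would have been flagged. None of the 8 groups of the 4 GH9B genes was set apart.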

How the results depend on the processing

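Each of the 4 GH9B genes was lower at 4 °C under every alternative that was run. Median centring and quantile normalization each kept 2 of the 4 calls, and cyclic loess kept 1. The calls lost were those of GH9B8 under these 3 scalings in turn at -0.91, -0.57 and -0.64, of GH9B16 at -0.65, -0.52 and -0.48, and of GH9B12 at -0.87 with cyclic loess, and the cause was not tested. In the same order 638, 701 and 703 probes were called lower and 1015, 803 and 646 higher. Over single arrays 420 were higher, with the pair as a random block 353, and with the replicate number as a block 424. GH9B8 was among the 859 dimmest probes and has no value where these were left out. The replicate number as a block changed none of the 4 calls, also with pair means (1602 lower and 207 higher). Whether the numbers pair the groups is not known. Leaving out 1 pair in turn gave log2 changes of -2.14 to -1.76 for GH9B11, -2.26 to -1.67 for GH9B12, -2.14 to -1.49 for GH9B8 and -1.84 to -1.32 for GH9B16, all past the threshold, with adjusted p up to 0.0443. It gave 1525 to 1812 calls, 1383 to 1621 lower and 142 to 211 higher, the lowest without arrays 5 and 6 at 20 °C. The difference between GH9B11 and GH9B8, -0.08 as deposited, was -0.41 with quantile normalization and -0.39 with the offset. Of the other 52 such values, none moved by more than 1 SD, and 9 of all 54 had the other sign. The offset, which shrinks the folds of dim probes by construction, gave falls of 2.30-fold to 3.01-fold.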
